A study of Mus musculus with 6 samples.

Results

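The genes described here encode the main secreted and membrane-bound cues that steer growing axons and migrating cells, together with their receptors: semaphorins with plexins and neuropilins, netrins with Dcc and the Unc5 receptors, Slit proteins with Robo receptors, and ephrins with Eph receptors. They were taken by gene symbol, in families chosen with earlier results of these data known, and 68 genes with a probe set of their own entered the comparison, out of 19938 genes measured on the arrays. Ephb2 also matched by symbol and was not analysed here. RNA came from enterospheres, free-floating spheres of neural progenitor cells that were grown with epidermal and fibroblast growth factors from the gut muscle of newborn C57BL/6 mice, picked, and moved into differentiation medium without these growth factors. Group T3 was then kept for 1 day with triiodothyronine at 100 nM (the labels write the unit as nm), and the control group was kept for the same time without it. Both groups held 3 samples, each from 3 mice pooled, and each sample was measured on 1 array.

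Guidance cues act as attractants or repellents, and the response depends on which receptors the responding cell carries. In the embryonic gut the same families help to place crest-derived cells and to guide the nerve fibres that enter the gut wall. Triiodothyronine, T3, is the active form of thyroid hormone and acts through nuclear receptors that bind DNA and change the transcription of nearby genes. The comparison asks which guidance genes differed in whole spheres after 1 day of the hormone.

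The spheres are a mixture, and in such bulk RNA a lower value can mean fewer cells of a type or less RNA per cell, which cannot be told apart. Klf9 and Hr, genes known to respond to T3, rose with log2 changes of 1.86 and 1.92. Markers of enteric glia and Schwann cells, a list that includes the crest factor Sox10, had a mean log2 value of 10.49 to 10.63 in the control arrays and 10.41 to 10.59 in the T3 arrays, and 0 of its 8 measured genes were called by limma, with 0 at an unadjusted p under 0.05 as well. The smallest p of that list belonged to Gfap and Ednrb, with changes of -0.20 and -0.22 (adjusted p of 0.428 and 0.470). The mean of leukocyte markers was 5.07 to 5.13 in control and 5.04 to 5.14 in T3 arrays and that of epithelial markers 5.33 to 5.57 and 5.42 to 5.49, below the array medians of 6.09 to 6.15; no gene of either list was called or had an unadjusted p under 0.05, and their genes of smallest p were Cd14 and Cd68, and Krt19 and Cdh1. The mean of the 12 neuron markers was higher in every T3 array than in any control array, at 10.01 to 10.11 against 9.75 to 9.95, and Prph and Snap25 rose by 0.94 and 0.33. Nefl had a change of 0.71 that did not pass (adjusted p = 0.202), 4 of the 12 (Elavl3, Gap43, Syt1 and Uchl1) were below 0, and the median of the list was 0.07. Of 12 endothelial markers, Plvap rose by 0.42 and Egfl7 and Kdr fell by 0.70 and 0.41 on the log2 scale; the list mean was 6.34 to 6.55 in control and 6.36 to 6.55 in T3 arrays. Of these 12, 9 were above 0, among them Cdh5 at 0.42 and Pecam1 at 0.27, which did not pass (adjusted p of 0.429 and 0.411). Of 10 smooth muscle markers, Myocd and Myh11 rose and Tagln and Acta2 fell, so that 40% were called where 3.10% of all genes were. An unadjusted p under 0.05 (limma) was reached by 8 of these 10, 5 higher and 3 lower, which is 80% against 13.7% of all genes. Their median change was 0.27, and the list mean was 7.299 to 7.442 in control and 7.433 to 7.499 in T3 arrays. Of 11 fibroblast and mesenchyme markers, Thy1 rose by 1.24 and Twist1 fell by 0.49 on the log2 scale. The list mean was 10.57 to 10.65 in control and 10.61 to 10.67 in T3 arrays. The median of this list was -0.03, and 7 of the 11 were below 0. An unadjusted p under 0.05 (limma) was reached by 1 higher and 3 lower markers of the list, 36.4% against 13.7% of all genes. Of 3 markers of interstitial cells of Cajal, Ano1 rose by 0.43 and the other 2 were above 0 without passing; the list mean was higher in every T3 array, at 10.19 to 10.26, than in any control array, at 9.95 to 10.12. Of these 12 called markers, Prph, Egfl7, Tagln and Thy1 passed without any 1 array and the other 8 did not. The part of these cell types in the results below was not tested.

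Of the 68 guidance genes, 8 differed between the groups with an adjusted p under 0.05 (limma, Benjamini-Hochberg adjustment over all 19938 genes), and as many rose as fell. Sema3a, Epha6, Plxnd1 and Efnb3 were higher with T3, and Sema3d, Slit1, Unc5b and Robo1 were lower. These 8 are 11.8% of the 68, where 3.10% of all genes passed the same test, 2.28% higher and 0.823% lower. All 8 changes were moderate, between 1.25-fold for Robo1 and 1.63-fold for Sema3d. An unadjusted p under 0.05 was reached by 28 of the 68 genes, 14 in each direction, against 13.7% of all genes, of which 8.92% were higher and 4.80% lower. The 3 T3 values and the 3 control values did not overlap for 30 of the 68 genes, or 44.1%, against 19.5% of all genes. The median change of the 68 genes was -0.02, and its sign turned after centring each array on its median, with array quality weights and without control replicate 3; the median of all 19938 genes was 0.01.

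The spread between arrays of a group was smaller for these genes than for genes at large, with a median SD of 0.0834 against 0.109 on the log2 scale. Most of the 68 genes were also bright on the arrays. When the dimmer 50% of all genes were left out, 51 of the 68 genes remained. Of these, 11 were called, or 21.6%, where 7.47% of all remaining genes were called. Epha6 and Sema3d, called among all genes, were among the dimmer 50% and left out. Epha6 was below the median of all probe sets on 6 of 6 arrays, and Sema3d on 0. The 11 include Nrp1, Ntn1, Plxna1, Sema3c and Sema4d, which were not called among all genes. Of the 60 genes that were not called, 57 had a 95% interval of the log2 change that lay within 0.5 either side of 0, and 27 had one within 0.3. For 20 of the 60 the interval excluded 0 although the adjusted p missed the threshold, so these genes are neither shown to change nor shown to be unchanged.

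**Figure D1:**
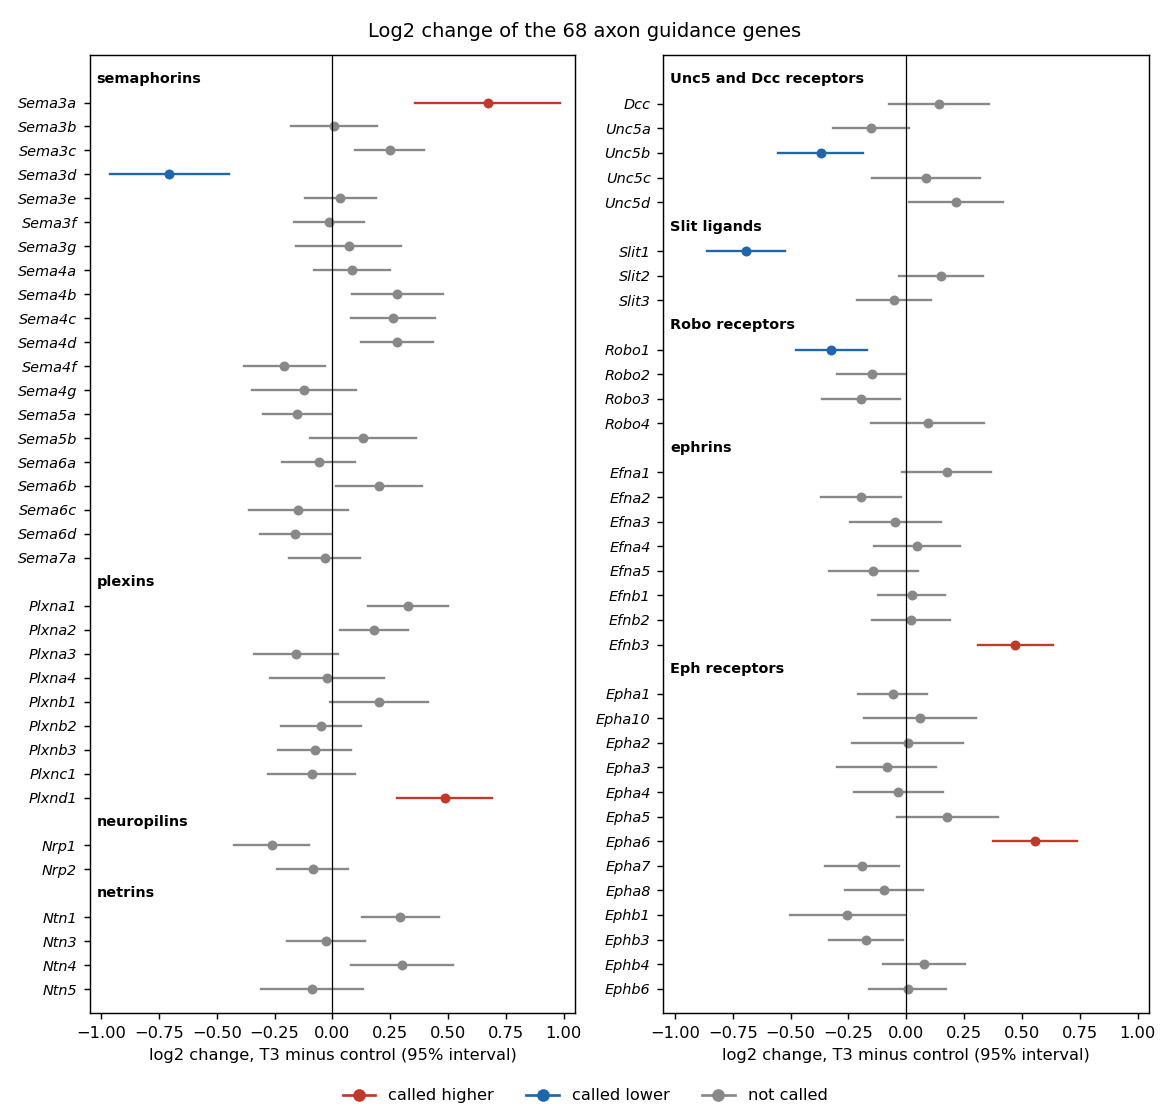
Log2 change, T3 minus control, of each of the 68 axon guidance genes by family, with the 95% interval from limma as a line. The 4 genes called higher (Sema3a, Plxnd1, Efnb3, Epha6) and the 4 called lower (Sema3d, Slit1, Robo1, Unc5b) are coloured, and the other 60 are grey. Sema3a and Sema3d, called in opposite directions, are both semaphorins, and each of the other called genes stands in a different family.

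Semaphorins, the largest family of the set, are ligands that share a sema domain; class 3 is secreted and mostly repels axons, and classes 4 to 7 are bound to the membrane. Of 20 measured semaphorins, 1 rose, 1 fell and 18 were not called, with changes from -0.70 to 0.67. The 2 called genes were both of class 3. Sema3a, which collapses growth cones through neuropilin-1 and class A plexins, was measured by probe set 10519717 at 8.69, 9.06 and 8.71 in the control arrays and at 9.75, 9.39 and 9.33 in the T3 arrays (log2 values, replicates 1 to 3). The groups did not overlap, but control replicate 2 stood above the other control arrays and T3 replicate 1 above the other T3 arrays. Sema3a rose by 0.67 ± 0.14 (SE, n = 3 per group), a 1.59-fold difference with adjusted p = 0.0378 (limma). Its SE was the highest among the 8 called genes, and the call held only without control replicate 2; without any other array the adjusted p was 0.0654 to 0.170.

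Sema3d, another secreted class 3 ligand (probe set 10519693), moved the other way. It was measured at 7.10, 7.33 and 7.38 in the control arrays and at 6.78, 6.45 and 6.48 in the T3 arrays. T3 replicate 1 was the closest to the control arrays and control replicate 1 the closest to the T3 arrays, with no overlap. Sema3d fell by 0.70 on the log2 scale (SE 0.11, n = 3 per group), a 1.63-fold difference with adjusted p = 0.0145 (limma). The call was lost without T3 replicate 2 or T3 replicate 3 (adjusted p up to 0.0668).

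Sema3a and Sema3d are neighbours: in the RefSeq annotation of GRCm38.p6 no other protein-coding gene starts between them. Within each array, Sema3a changed by 0.67 ± 0.18 (SE) more than the mean of the other 19 semaphorins, and Sema3d changed by -0.78 ± 0.13 (SE) relative to the other 19. The exact two-sided permutation test gave p = 0.1 for each, which is the smallest value that 3 arrays against 3 can give. The same test was run for all 8 called genes against the other members of their families, a comparison chosen after the values were seen. This permutation test gave p = 0.1 for each of the 8 and 0.1 after Benjamini-Hochberg adjustment. The 8 genes were picked as called in these same arrays. The relative changes here and below therefore describe the values and add no support to a call. Their SE comes from the 3 arrays of each group alone and not from limma.

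The other secreted semaphorins were not called. Sema3c, which also acts through neuropilins, was tight within both groups between 8.98 and 9.01 in control and 9.22, 9.30 and 9.21 in T3 arrays, with a change of 0.25 ± 0.07 (SE) and adjusted p = 0.1004 (limma). Sema3e, the ligand that binds plexin-D1 without a neuropilin, differed by 0.03, with a 95% interval of -0.12 to 0.19. Sema3b, Sema3f and Sema3g had changes of 0.0051, -0.01 and 0.07.

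Among the membrane-bound class 4 semaphorins, Sema4b, Sema4c and Sema4d had similar positive values that did not pass. Sema4d, a ligand of plexin-B1 (probe set 10409240), was at 8.84, 8.87 and 8.76 in control and at 9.14, 9.07 and 9.10 in T3 arrays, with a change of 0.28 ± 0.07 (SE) and adjusted p = 0.0728 (limma). A dimmer second probe set of Sema4d did not follow it, with a change of -0.03 and adjusted p = 0.956 in a fit of every probe set on its own. Sema4b and Sema4c had changes of 0.28 and 0.26 with adjusted p of 0.155 and 0.149, and their groups did not overlap either. Sema4f stood on the other side of 0 at -0.21 (adjusted p = 0.255), and Sema4a and Sema4g had values of 0.08 and -0.12. None of the 6 class 4 genes was called by limma, and 4 had an unadjusted p under 0.05, or 66.7% against 13.7% of all genes.

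The remaining semaphorins were likewise not called. Sema5a and Sema6d, transmembrane proteins of classes 5 and 6, were lower in every T3 array than in any control array, with small changes of -0.15 and -0.16 and adjusted p of 0.340 and 0.341. Sema6b had a change of 0.20 (adjusted p = 0.316), and 2 probe sets that the annotation lists for it hold the same values. Sema5b, Sema6a, Sema6c and Sema7a, the last one anchored by a lipid, ranged from -0.15 to 0.13 with overlapping groups.

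Plexins are the transmembrane receptors that pass a semaphorin signal to small GTPases of the cytoskeleton. Of 9 measured plexins, 1 rose and 8 were not called, with changes from -0.16 to 0.49. The gene that rose was Plxnd1 (probe set 10547100), which encodes plexin-D1, the receptor of Sema3e that is prominent in blood vessels and present in neurons. It was at 9.42, 9.54 and 9.49 in the control arrays and at 10.15, 9.87 and 9.89 in the T3 arrays. T3 replicate 1 stood clear of the other T3 arrays, and all 3 were above the control arrays. Plxnd1 rose by 0.49 ± 0.09 (SE, n = 3 per group), a 1.40-fold difference with adjusted p = 0.0269 (limma), and by 0.45 ± 0.05 (SE) more than the mean of the other 8 plexins. The call held only without control replicate 2, and without any other array the adjusted p reached 0.135. Of the 12 endothelial markers, Kdr and Egfl7 fell and Plvap rose in the same arrays, and 9 were above 0; their part in the value of Plxnd1 was not tested.

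The class A plexins, which with neuropilins receive class 3 semaphorins, had unlike values. Plxna1 was at 10.25, 10.28 and 10.27 in control and at 10.72, 10.52 and 10.55 in T3 arrays, a change of 0.33 ± 0.08 (SE) with adjusted p = 0.0632 (limma). Plxna2 had a change of 0.18 (adjusted p = 0.230) with groups that did not overlap. Plxna3 and Plxna4 had changes of -0.16 and -0.02, and for Plxna4 the T3 arrays spread from 9.32 to 9.74, around the control arrays. Of the class B plexins, Plxnb1 had a change of 0.20 and Plxnb2 and Plxnb3 had changes of -0.05 and -0.08. Plxnc1, the receptor of Sema7a, had a change of -0.09.

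Neuropilins bind class 3 semaphorins on the cell surface and also serve as coreceptors of vascular endothelial growth factor. Nrp1 was at 9.98, 10.10 and 10.08 in the control arrays and at 9.75, 9.78 and 9.85 in the T3 arrays. The groups did not overlap, and the change of -0.26 ± 0.07 (SE) missed the threshold with adjusted p = 0.104 (limma). Nrp2 had a change of -0.09, with a 95% interval of -0.24 to 0.07. Neither neuropilin was called, and 1 of the 2 had an unadjusted p under 0.05 (limma), where 13.7% of all genes did. Among the receptor parts of Sema3a, Nrp1 and the 4 class A plexins, the changes thus ran from -0.26 for Nrp1 to 0.33 for Plxna1, and none passed.

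Upstream sequence is shown for 4 of these genes, because the neighbours Sema3a and Sema3d moved in opposite directions, because Plxnd1 is the only called gene whose window holds the hexamer that thyroid hormone receptors bind, and because Sema4d has 3 starts that differ in it. The sequences are the 250 bases before a RefSeq gene start (GRCm38.p6), written 5′ to 3′ in the direction of the gene, and capitals mark the hexamer AGGTCA or its reverse complement TGACCT. The windows are chr5:13396534-13396783 on the plus strand for Sema3a, chr5:12382916-12383165 on the plus strand for Sema3d, chr6:115995006-115995255 on the minus strand for Plxnd1 and chr13:51756684-51756933 on the minus strand for Sema4d.
Sema3a: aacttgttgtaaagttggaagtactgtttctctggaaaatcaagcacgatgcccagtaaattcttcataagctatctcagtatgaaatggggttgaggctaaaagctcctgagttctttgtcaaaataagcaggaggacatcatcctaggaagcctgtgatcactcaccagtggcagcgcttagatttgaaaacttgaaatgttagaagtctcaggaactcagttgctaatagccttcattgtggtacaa
Sema3d: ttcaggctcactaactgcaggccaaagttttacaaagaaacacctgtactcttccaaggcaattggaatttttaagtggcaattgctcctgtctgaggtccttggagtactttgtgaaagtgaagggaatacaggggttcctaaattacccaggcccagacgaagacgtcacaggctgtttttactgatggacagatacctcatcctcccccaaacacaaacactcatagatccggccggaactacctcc
Plxnd1: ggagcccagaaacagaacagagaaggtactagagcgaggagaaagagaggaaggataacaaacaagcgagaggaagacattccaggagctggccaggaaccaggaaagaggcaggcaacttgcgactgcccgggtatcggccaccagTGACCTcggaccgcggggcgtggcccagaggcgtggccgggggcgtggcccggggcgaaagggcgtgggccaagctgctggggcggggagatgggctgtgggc
Sema4d: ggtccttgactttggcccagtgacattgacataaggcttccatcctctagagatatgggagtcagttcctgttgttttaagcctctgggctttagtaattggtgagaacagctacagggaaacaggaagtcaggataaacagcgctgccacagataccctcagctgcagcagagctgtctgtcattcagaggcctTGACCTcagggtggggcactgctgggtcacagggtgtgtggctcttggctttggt

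The hexamer of Plxnd1 begins 103 bases before the start and that of Sema4d 55 bases before it, both as TGACCT. The table holds 2 other starts of Sema4d without the hexamer. Sema3a and Sema3d have none in these windows, and they are poorer in C and G than the windows of the set, with 40.8% and 46.8% against a median of 64.4%; the Plxnd1 window has 64.8%. Windows were found for 58 of the 68 genes, 74 windows in all, and 11 of the 74, or 14.9%, held the hexamer on either strand, against 14% of all 32851 windows in the table. Among the 8 called genes, Slit1 and Efnb3 had no window and were not searched. The other 6 had a window, and Plxnd1 was the only one of the 6 with the hexamer. The other carriers were not called and lay on both sides of 0: Sema4d, Ntn4, Sema4b, Sema6b, Robo4 and Epha2 above it, and Nrp1, Sema5a, Ntn5 and Plxnb2 below it. A tandem of 2 copies of AGGTCA in the same direction with 4 bases between them, searched on both strands, was in none of the 74 windows and in 5 windows of the table. A match of these letters describes the sequence and does not show that a receptor binds there.

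Netrins are secreted, laminin-like cues; netrin-1 attracts axons and crest-derived cells through Dcc and repels them through Unc5 receptors. None of the 4 measured netrins was called by limma, and 2 had an unadjusted p under 0.05, or 50% against 13.7% of all genes. Ntn1, which encodes netrin-1 (probe set 10387170), was at 8.42, 8.51 and 8.59 in the control arrays and at 8.83, 8.77 and 8.79 in the T3 arrays. Every T3 array lay above every control array, and the change of 0.29 ± 0.07 (SE) missed the threshold with adjusted p = 0.0799 (limma). Ntn4 had a change of 0.30 ± 0.10 (SE, adjusted p = 0.178) in which T3 replicate 1 stood above the other T3 arrays, which were at 6.77 and 6.66. Ntn3 and Ntn5 had changes of -0.03 and -0.09.

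Of the 5 netrin receptors of the Unc5 and Dcc group, 1 fell and 4 were not called. Unc5b, a repellent receptor of netrin-1 that is also found on endothelium (probe set 10369388), was at 8.74, 8.92 and 8.74 in the control arrays and at 8.52, 8.37 and 8.40 in the T3 arrays. The groups did not overlap, with control replicate 2 the highest. Unc5b fell by 0.37 on the log2 scale (SE 0.08, n = 3 per group), a 1.29-fold difference with adjusted p = 0.0487 (limma). This was the call nearest to the threshold: it was lost without any 1 array (adjusted p from 0.0685 to 0.190) and after centring each array on its median. Relative to the mean of the other 4 receptors Unc5b changed by -0.44 ± 0.05 (SE). Dcc itself had a change of 0.14 with a 95% interval of -0.07 to 0.36, Unc5a one of -0.15, Unc5c one of 0.08 and Unc5d one of 0.22, and none of these passed (adjusted p of at least 0.324). The endothelial markers given above moved in the same arrays, and their part in the value of Unc5b was not tested.

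Slit proteins are large secreted repellents, and Robo receptors of the immunoglobulin superfamily receive them. A ligand and a receptor of this pathway were both lower with T3. Slit1, a ligand found mostly in the nervous system (probe set 10467599), was at 8.44, 8.36 and 8.50 in the control arrays and at 7.79, 7.76 and 7.67 in the T3 arrays. Both groups were tight, and the lowest control array lay far above the highest T3 array. Slit1 fell by 0.69 on the log2 scale (SE 0.07, n = 3 per group), a 1.62-fold difference. Its adjusted p of 0.00271 (limma) was the smallest of the 68 genes, and Slit1 was the only one of the 8 called genes that passed without any 1 array (adjusted p up to 0.0217). The other 2 Slit genes did not share the change: Slit2 had a value of 0.15 (95% interval -0.03 to 0.33) and Slit3 one of -0.05 (-0.21 to 0.11). Slit1 changed by -0.74 ± 0.07 (SE) relative to their mean.

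Robo1, the widely expressed Slit receptor (probe set 10436519), was at 10.06, 10.12 and 10.01 in the control arrays and at 9.74, 9.71 and 9.76 in the T3 arrays. The groups stood apart with little spread in either. Robo1 fell by 0.32 on the log2 scale (SE 0.07, n = 3 per group), the smallest of the called changes, with adjusted p = 0.0396 (limma). The call was lost without any 1 array (adjusted p from 0.0625 to 0.165) and after centring on the median. Robo2, the next protein-coding gene beside Robo1 in the RefSeq annotation, was at 8.26, 8.30 and 8.36 in control and 8.14, 8.16 and 8.17 in T3 arrays, a change of -0.15 that did not pass (adjusted p = 0.362). Robo3, known from commissural neurons, had a change of -0.20 (adjusted p = 0.267) at a dim level of 5.06 in controls, and Robo4, the receptor of endothelium, had one of 0.09. Relative to the mean of the other 3 Robo genes, Robo1 changed by -0.24 ± 0.10 (SE).

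**Figure D2:**
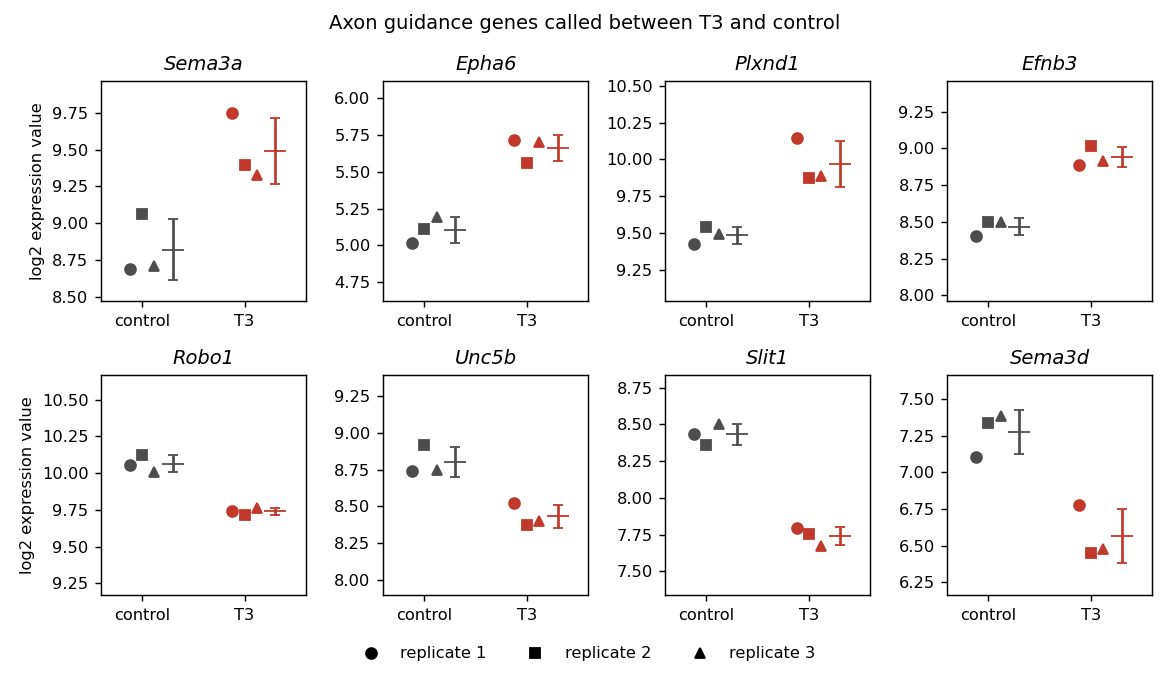
Log2 expression value on each of the 3 control and 3 T3 arrays for the 8 called genes, with the group mean and SD beside the points and the replicate number as the symbol; every panel spans the same range of 1.5 log2 units. The groups overlap in no panel, Slit1, Efnb3 and Robo1 are tight within groups, and Sema3a is the most spread.

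Ephrins are ligands tethered to the membrane, by a lipid in class A and by a transmembrane segment in class B, so that they signal between touching cells and in both directions. Of 8 measured ephrins, 1 rose and 7 were not called. Efnb3, which encodes ephrin-B3, a midline barrier for axons in the spinal cord (probe set 10387483), was at 8.40, 8.50 and 8.50 in the control arrays and at 8.89, 9.02 and 8.92 in the T3 arrays. The T3 arrays stood above the control arrays with a clear gap. Efnb3 rose by 0.47 ± 0.07 (SE, n = 3 per group), a 1.39-fold difference with adjusted p = 0.0119 (limma), and by 0.49 ± 0.05 (SE) more than the mean of the other 7 ephrins. It missed the threshold in 3 of the 6 fits without 1 array, namely those that left out control replicate 1, T3 replicate 2 or T3 replicate 3, with an adjusted p of 0.0723 at most. The other class B ephrins had changes close to 0, with 0.02 for Efnb1 (95% interval -0.12 to 0.17) and 0.02 for Efnb2 (-0.15 to 0.19). In class A, Efna1 had a change of 0.17, Efna2 one of -0.20, Efna3 one of -0.05, Efna4 one of 0.05 and Efna5 one of -0.14, with adjusted p of at least 0.280.

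Eph receptors form the largest family of receptor tyrosine kinases; EphA receptors mostly bind class A and EphB receptors class B ephrins. Of 13 measured receptors, 1 rose and 12 were not called. Epha6, a receptor of the nervous system (probe set 10440216), was at 5.02, 5.11 and 5.19 in the control arrays and at 5.72, 5.56 and 5.70 in the T3 arrays. All T3 values lay above the control values, yet every one of the 6 values was below its array's median, and whether the gene was above background is not known. Epha6 rose by 0.56 ± 0.08 (SE, n = 3 per group), a 1.47-fold difference in signal with adjusted p = 0.00911 (limma), and by 0.60 ± 0.06 (SE) more than the mean of the other 12 Eph receptors. The call was lost without control replicate 1 (adjusted p = 0.0567) and held without any other 1 array.

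Of the other EphA receptors, Epha7 had a change of -0.19 (adjusted p = 0.241) with groups that did not overlap, and Epha5 one of 0.18 (adjusted p = 0.497). Epha4, which can bind ephrins of both classes including ephrin-B3, had a change of -0.04 with a 95% interval of -0.23 to 0.16. Epha1, Epha2, Epha3, Epha8 and Epha10 ranged from -0.09 to 0.06. In the EphB class, Ephb1 had a change of -0.26 (limma, adjusted p = 0.345) and was below the array's median on all 6 arrays. A dimmer second probe set of Ephb1 had a change of -0.11 (adjusted p = 0.878, limma fit of every probe set on its own). Control replicate 3 stood highest for Ephb1, at 5.94 against 5.69 and 5.51 in the other control arrays. Ephb3 had a change of -0.17 (adjusted p = 0.307) with groups that did not overlap, and Ephb4 and Ephb6, the latter without kinase activity, had changes of 0.08 and 0.0070.

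**Figure D3:**
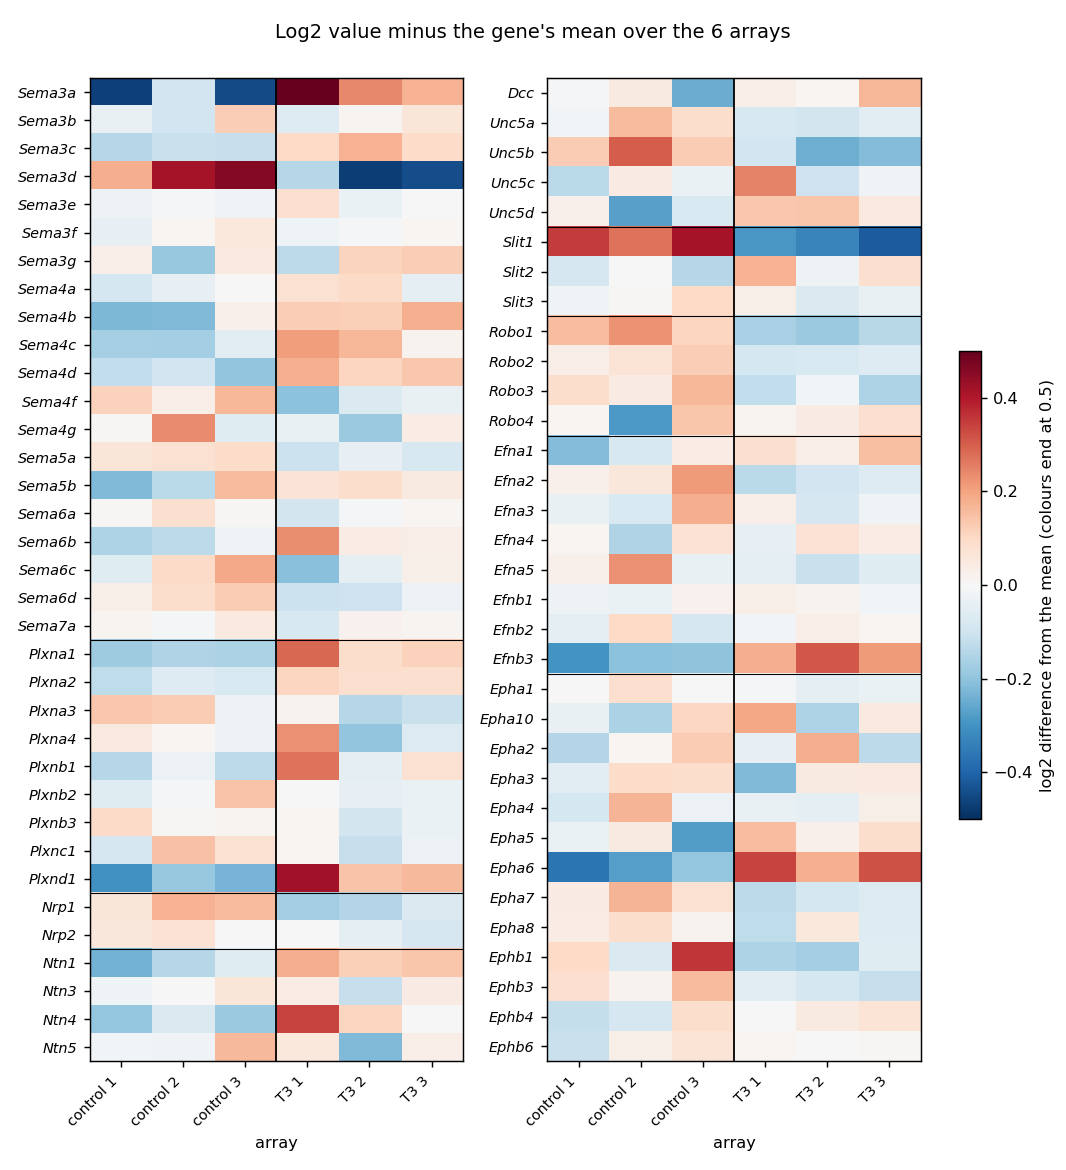
Log2 value of each of the 68 genes on each array minus the gene's mean over the 6 arrays, by family, with a vertical line between control and T3 arrays; the colour scale ends at 0.5 in both directions. Slit1, Sema3d, Sema3a, Epha6 and Plxnd1 have the strongest contrast between the groups, and in Sema3a, Plxnd1 and Plxna1 the T3 replicate 1 array is the highest.

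The calls were spread over both kinds of gene. Of 35 ligand genes 2 rose and 2 fell, and of 33 receptor genes 2 rose and 2 fell. These are 11.4% of the ligand and 12.1% of the receptor genes, where 3.10% of all genes were called. In each of the 4 systems, at least 1 ligand or receptor was called: Sema3a, Sema3d and Plxnd1 among semaphorins and plexins, Unc5b among netrin receptors, Slit1 and Robo1 among Slit and Robo genes, and Efnb3 and Epha6 among ephrins and Eph receptors. Slit1 and Robo1, a ligand and a receptor known to bind each other, both fell. The call of Robo1 was lost whichever array was left out, and that of Slit1 held.

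The array that stood farthest from its group's mean was T3 replicate 1 for 47.1% of the 68 genes and 48.6% of all genes. Among the control arrays it was replicate 1 for 35.3%, replicate 2 for 29.4% and replicate 3 for 35.3% of the 68 genes. Over all genes these shares were 21.7%, 39.1% and 39.2%, so control replicate 1 was not farther off than control replicate 3. Without control replicate 1 only Slit1 and Sema3d were called. Without T3 replicate 2 or T3 replicate 3 only Slit1 and Epha6 were called.

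**Figure D4:**
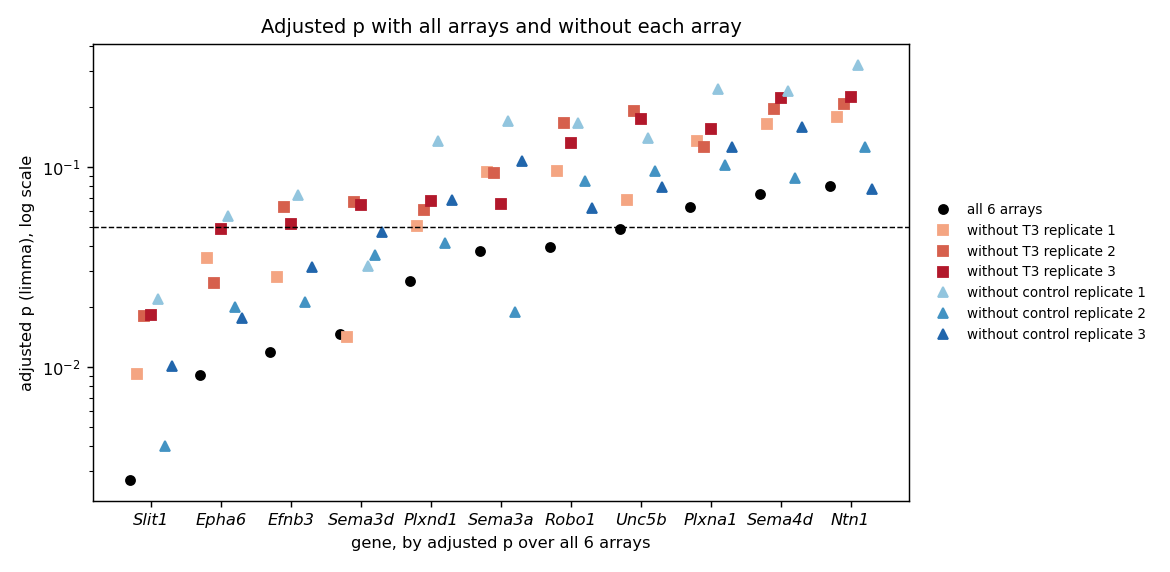
Adjusted p (limma, log axis) of the 8 called genes and of the 3 genes with an adjusted p between 0.05 and 0.1, with all 6 arrays (black) and without each array in turn; the dashed line is the threshold of 0.05. Slit1 stays under the line in all 6 fits without 1 array, and Robo1 and Unc5b in none.

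The pathways also depend on coreceptors and on partners inside the cell. Of 55 measured genes on a list of such partners, 0 rose and 2 fell (limma), which is 3.64% against 3.10% of all genes; an unadjusted p under 0.05 was reached by 5 higher and 11 lower genes, 29.1% of the list against 13.7% of all genes, and the groups did not overlap for 36.4% against 19.5%. The median of the list was -0.04. Met, the receptor of hepatocyte growth factor that associates with class B plexins, was at 7.78, 7.42 and 7.49 in control and 6.97, 6.64 and 6.79 in T3 arrays, and fell by 0.76 on the log2 scale with adjusted p = 0.0125 (limma). Vav3, a signalling protein that acts downstream of Eph receptors, was at 6.46, 6.65 and 6.40 in control and 5.86, 5.89 and 6.10 in T3 arrays, and fell by 0.55 with adjusted p = 0.0224. Each of these calls was lost in 3 of the 6 fits without 1 array: for Met these left out control replicate 1, T3 replicate 2 or T3 replicate 3 (highest adjusted p 0.0515), and for Vav3 control replicate 1, T3 replicate 1 or T3 replicate 2 (highest 0.0943). Neo1, a netrin receptor related to Dcc, had a change of 0.13 and adjusted p = 0.586.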

How the data were processed

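Values of 6 arrays (3 T3, 3 control) were used. The values that the authors deposited are log2 signals, 1 for each probe set; the submitters' processing notes name RMA and Partek version 6.5. The sources used here do not give settings, probe set level or genome build. RMA as usually run aligns the arrays' distributions by quantiles, which removes changes shared by most genes and compresses differences of dim genes. No detection calls come with the values. The number of arrays limits the precision.

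Probe sets were named by the platform annotation: 21789 of 35556 had 1 symbol, 1621 several and 12146 were not listed. A gene with several probe sets was represented by the one of highest mean, which left 19938 genes; all 68 guidance genes were found by identifier in a RefSeq gene table. The difference T3 minus control came from lmFit and eBayes of limma 3.58.1 (R 4.3.3) at default settings and with no filter, tested two-sided; p-values were adjusted by Benjamini-Hochberg over the 19938 genes, with 0.05 as the threshold for a call. SE and 95% intervals of a gene's own change come from limma, and SD is over 3 arrays. The SE of a change relative to a family mean comes from the variances of the 3 arrays in each group alone. It is not comparable with the limma SE. The procedure was tested on simulated data. The labels do not say whether the samples of a group came from separate preparations. The p-values set the difference between groups against the scatter of these samples only, and that scatter may be technical.

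Of the guidance genes the text gives every called gene, those with an adjusted p from 0.05 to 0.1 and the gene of smallest p in each family with the values of each array, other members in brief, and of each fixed list the genes of smallest p. Neo1 and Sox10 were named after their values were seen. Motifs were searched with Python 3.11.15 in RefSeq promoter windows. Members and lists were chosen with earlier results of these data known. Results were recomputed with the replicate number as a block, with arrays quantile-normalized again or centred on their median or 75th percentile, without dim genes, with probe sets of a gene averaged or taken singly, with a variance trend and robust fit, with array weights, at an adjusted p under 0.1, and without each array.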

Additional observations from a re-analysis of the deposited data

How the results depend on the processing

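Slit1 kept its call in every setting tried, and the calls of the other 7 guidance genes were each lost in at least 1 fit without 1 array. Their log2 changes kept their sign in these fits. Efnb3 had 0.434 to 0.498, Epha6 0.512 to 0.605, Plxnd1 0.397 to 0.534 and Sema3a 0.543 to 0.792. Among the genes called lower, Robo1 had -0.352 to -0.295, Sema3d -0.811 to -0.645 and Unc5b -0.414 to -0.312. Without any 1 array, 0 to 4 guidance genes were called higher (0 by limma without control replicate 1, where 12 had an unadjusted p under 0.05) and 1 to 2 lower; over all genes 134 to 516 were higher and 57 to 124 lower, of the pathway partners 0 to 2 were lower (6 to 11 at an unadjusted p under 0.05) and 0 higher, and of the markers 2 to 4 were higher and 2 to 3 lower. Array quality weights called most, with 2451 higher and 1097 lower genes, 15 and 9 guidance genes, 5 and 10 pathway partners and 16 higher markers. Trend and robust fitting gave 261 lower genes, 8 higher guidance genes, and 1 higher and 5 lower pathway partners. At an adjusted p under 0.1 there were 282 lower genes, 7 higher guidance genes and 4 lower partners. Without the dimmer 50% of genes, 7 guidance genes and 1 partner were higher. Renewed quantile normalization gave 4 lower partners, centring on the median 2 lower guidance genes (Robo1 and Unc5b were lost), and centring on the 75th percentile 4 higher markers. The share of higher genes among all calls was 73.5%, 81.5% after centring on the median and 65.3% after renewed quantile normalization. The cause of these differences was not tested. Same-numbered arrays did not deviate together (correlations over genes of 0.179, 0.0171 and 0.000167), and not every array correlated best with its own number, so the number was not taken as a pairing; with it as a block, 2 guidance genes were called higher and 2 lower (Plxnd1, Robo1, Sema3a and Unc5b were lost) and 3 markers lower.

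Values of the other sign had an adjusted p of at least 0.58. The guidance gene with the largest main change among them was Sema4d, at 0.28 (adjusted p = 0.0728), which turned by its other probe set. After renewed quantile normalization they were Efnb1 (-0.0017), Efnb2 (-0.00747), Epha2 (-0.01) and Ephb6 (-0.0319). After centring on the 75th percentile they were Efnb1 (-0.00158), Efnb2 (-0.00319), Epha2 (-0.0187), Ephb6 (-0.017) and Sema3b (-0.019). With array quality weights these log2 changes were Epha3 (0.0522), Epha4 (0.0523), Plxnb2 (0.0126), Sema3f (0.0288), Sema6c (0.0014) and Cd68 (0.0678). After centring on the median they were Ntn3 (0.00385), Plxna4 (0.0058) and Sema3f (0.015). By the other probe set of the gene it was Sema4d (-0.025). Leaving out each array in turn gave log2 changes of both signs for Cd68 (-0.255 to 0.000198), Cdh1 (-0.0312 to 0.161), Efna3 (-0.0958 to 0.0319), Efna4 (-0.0178 to 0.0939), Efnb2 (-0.0161 to 0.0768), Epha10 (-0.0224 to 0.15), Epha2 (-0.0843 to 0.0728), Epha3 (-0.133 to 0.00501), Epha4 (-0.0885 to 0.0409), Ephb6 (-0.0459 to 0.0435), Ntn3 (-0.0522 to 0.0256), Plxna4 (-0.144 to 0.0682), Plxnb2 (-0.0916 to 0.00935), Robo4 (-0.0281 to 0.184), Sema3b (-0.0414 to 0.0683), Sema3f (-0.0392 to 0.00792), Sema3g (-0.00689 to 0.153) and Unc5c (-0.0172 to 0.157).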
